A study of Homo sapiens with 6 samples.

Results

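The ZFP36 proteins and the BTG/TOB proteins are factors that speed the shortening of the poly(A) tail of messenger RNAs. ZFP36, ZFP36L1, ZFP36L2, BTG1, BTG2, BTG3, TOB1 and TOB2 were taken by name from the deposited gene table. Each of the 8 had a row of its own, out of 18268 rows in all. The set was chosen by families, with the differences of these genes between the groups described here already known, so it counts as selected on those FPKM values. The differences are therefore given as a description, with no p-value.

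RNA was sequenced from MIA PaCa-2 cells, an established human pancreatic carcinoma line, in 6 libraries. The labels give 3 libraries of vector control cells carrying pCDH and 3 of cells that overexpress LINC00901, a long noncoding RNA. All cells were grown in DMEM with fetal bovine serum and horse serum, and no other treatment is labelled. The labels do not say whether replicates were separate cultures or whether the lines were clones, so the spread between libraries may be technical. The cells are bulk samples, in which fewer cells of a type and less RNA per cell cannot be told apart.

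The values are FPKM, which divide the fragments of a gene by its length and by the fragments of the library, so levels of different genes can be set side by side per length. Their sums were 87162 to 88738 in the vector libraries and 127768 to 128538 in the overexpression libraries, and the depth behind them is unknown. A filter on the mean over the 6 libraries (1 FPKM or more) left 9694 genes, which were tested on the log2(FPKM + 0.5) scale. The median tested gene was higher by 0.27 log2 (1.20-fold) in the overexpression libraries, and differences are given relative to it unless called unscaled. No row names LINC00901, so its level was not analysed here. Some markers on the lists for several cell types differed between the groups. Of 6 epithelial markers, the joined row KRT8;KRT78 was lower in overexpression (19.70 to 27.76 FPKM in vector against 14.82 to 16.56), as was KRT18 (90.93 to 105.38 against 62.48 to 86.92). KRT19 was higher (2.22 to 5.92 against 22.89 to 25.02), KRT7 overlapped, and EPCAM (at most 0.14) and CDH1 (at most 0.08) were near 0. The list summed to 122 to 136 FPKM against 100 to 129. Of 6 fibroblast markers, COL3A1 overlapped (170.17 to 185.05 against 161.90 to 180.45), COL1A2 was lower (17.58 to 18.43 against 10.39 to 15.77), COL1A1 was higher (0.36 to 0.92 against 1.5 to 1.99) and DCN stood at 0.00 to 0.01, with sums of 191 to 206 against 176 to 200. Of 5 leukocyte markers, PTPRC and CD3E were listed at 0 in all libraries, LYZ reached at most 0.18 and CD14 was higher (0.00 to 0.48 against 0.62 to 1.37). The joined row EIF4A1;CD68;SENP3 was higher too (22.68 to 26.09 against 34.04 to 37.88). It made up nearly all of the sums of 23.2 to 26.1 against 35.6 to 39.2. It joins CD68 to other genes, so it cannot be read as CD68 alone. The 3 endothelial markers summed to 0.140 to 0.280 against 0.480 to 0.640, nearly all from CDH5. The part of these markers in the results was not tested.

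Proteins of the ZFP36 family carry tandem CCCH zinc fingers that bind AU-rich elements in the 3′ untranslated region of messenger RNAs. They recruit the CCR4-NOT deadenylase complex through its scaffold CNOT1, and the RNA is then decapped or degraded by the exosome. BTG and TOB proteins share an N-terminal domain that binds the deadenylase subunits CNOT7 and CNOT8. BTG1 and BTG2 also bind the poly(A)-binding protein PABPC1 directly, and TOB1 and TOB2 reach it through a short peptide motif. ZFP36 and BTG2 are known as early-response genes, whose own RNAs are made quickly after a stimulus and are short-lived.

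The transcripts of 7 of these factors hold the letters of an element that the ZFP36 family reads. The heptamer TATTTAT, the core of a ZFP36 binding site in DNA letters, was searched on the transcript strand in the 3′ UTR of the principal GENCODE 29 transcript, with overlapping matches counted. It occurred 3 times in ZFP36, ZFP36L1 and ZFP36L2 each, 2 times in BTG3, 1 time in BTG1, BTG2 and TOB2, and 0 times in TOB1. Among 8827 tested genes with an annotated 3′ UTR, 33% held at least 1 heptamer and 5.82% held 3 or more. The longer TTATTTATT, the preferred nonamer, occurred 1 time in each ZFP36 family transcript and in none of the BTG/TOB transcripts, against 8.64% of these genes. The UTR lengths differ widely, from 440 bases in BTG3 and 713 in ZFP36 to 3802 in BTG1. One site each of 6 genes is given 5′ to 3′ as DNA, with the heptamer in capitals. Where a nonamer occurs it is the one that holds it, otherwise the first match is shown.
ZFP36 (GRCh38, chr19:39409197-39409223, plus strand): atgacgacttTATTTATtctaatatga
ZFP36L1 (GRCh38, chr14:68788078-68788104, minus strand): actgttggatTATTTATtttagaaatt
ZFP36L2 (GRCh38, chr2:43223449-43223475, minus strand): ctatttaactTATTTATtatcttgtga
BTG1 (GRCh38, chr12:92140771-92140797, minus strand): atagatttctTATTTATctgaaggtat
BTG3 (GRCh38, chr21:17593832-17593858, minus strand): tggacttgagTATTTATatattgtgca
TOB2 (GRCh38, chr22:41435381-41435407, minus strand): cgcaagtcctTATTTATatgtgaggct
A match is a run of letters and was not tested for binding.

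Of the 8 genes, 6 stood higher, in the FPKM as listed, in every overexpression library than in any vector library. These were ZFP36, ZFP36L1, BTG1, BTG2, TOB1 and TOB2. Their differences ran from 0.37 log2 in TOB2 to 2.80 in ZFP36. BTG3 overlapped between the groups, and ZFP36L2 was listed at 0 in 4 of 6 libraries. No member was lower throughout. Of all tested genes, 44.9% were separated upward in this way and 15.6% downward, and since the members were chosen with this contrast known, nothing is read from their count. ZFP36L2 had a mean of 0.908 FPKM and did not pass the filter, so 7 of the 8 genes were in the fit across all genes. Of these, ZFP36 passed only through the overexpression group. As a description, the median difference of the 7 was 1.20 log2, where the median over all tested genes is 0 by construction.

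**Figure D1:**
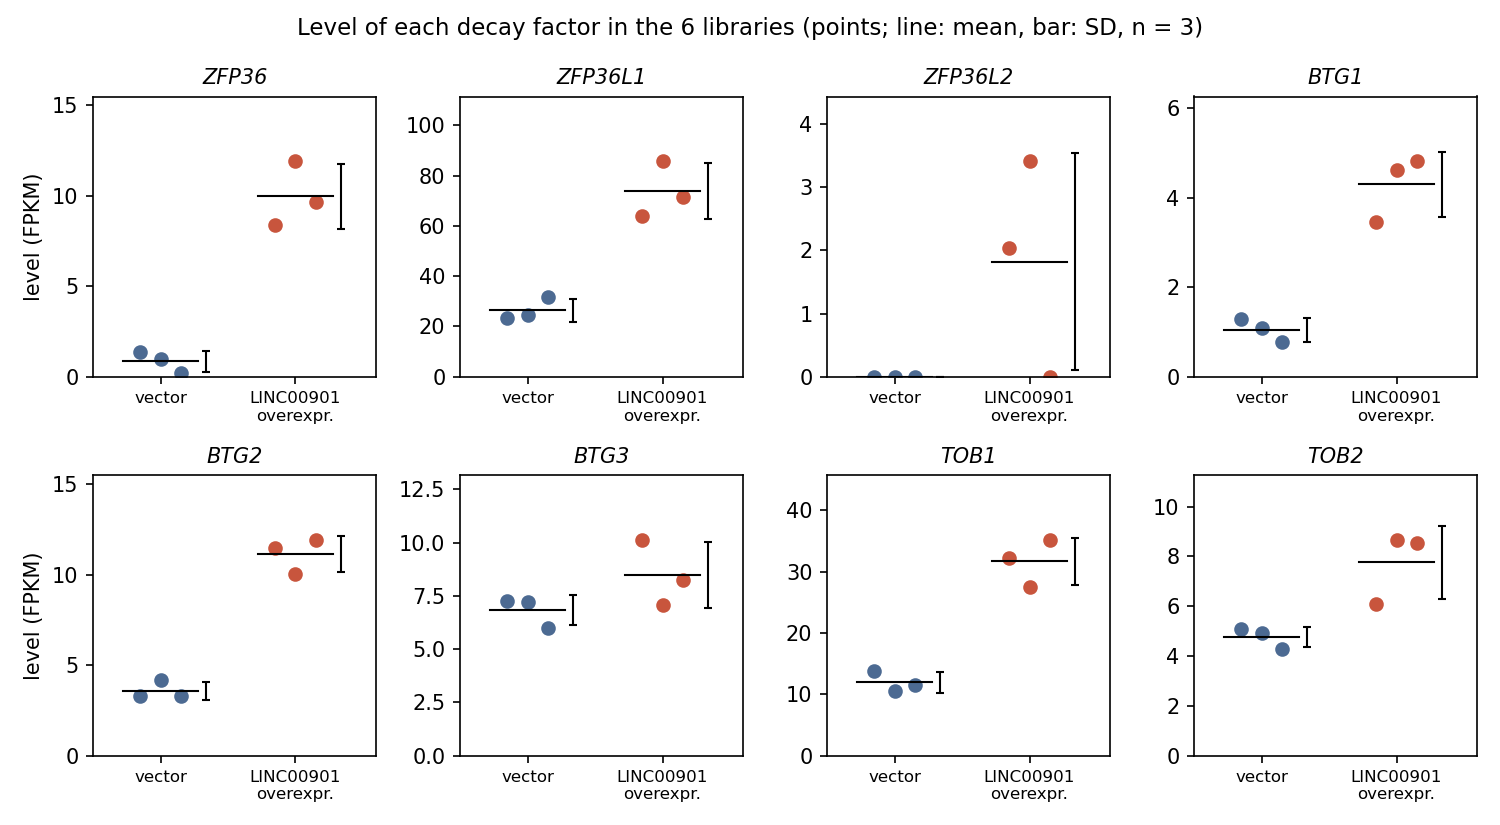
Level in FPKM (vertical axes, linear from 0, scaled per gene) of the 8 decay factors in the 3 vector and 3 LINC00901 overexpression libraries. Points are libraries, horizontal lines the means and bars the SD (n = 3). The groups are apart for 6 genes, while BTG3 overlaps and ZFP36L2 is at 0 in 4 libraries.

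ZFP36, also called tristetraprolin, is the founding member of its family and the factor that limits TNF messenger RNA. It stood at 1.35, 1.0 and 0.19 FPKM in vector replicates 1 to 3 and at 8.35, 11.90 and 9.67 FPKM in the overexpression replicates. The lowest overexpression library was thus far above the highest vector library, and vector replicate 3 was well below the other two. The means were 0.847 ± 0.595 and 9.97 ± 1.79 FPKM (SD, n = 3), a ratio of 11.8. On the log2 scale the difference was 2.80 (SE 0.36). ZFP36 passed the filter only through the overexpression group, so no rank among tested genes is given. The size of its difference also depends on the pseudocount. The unscaled ZFP36 difference of 3.06 was 2.64 without vector replicate 3.

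ZFP36L1, a paralogue with the same type of zinc fingers, was the most abundant of the 8 genes in every library. It stood at 23.36, 24.44 and 31.78 FPKM in the vector group and at 63.90, 85.76 and 71.64 FPKM in the overexpression group. The groups were apart by more than 30 FPKM. The means were 26.5 ± 4.58 and 73.8 ± 11.1 FPKM (SD, n = 3), a ratio of 2.78 and a log2 difference of 1.20 (SE 0.15).

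ZFP36L2, the third paralogue, was listed at 0.00 FPKM in each vector library and at 2.04, 3.41 and 0.00 FPKM in the overexpression group. Exact zeros are common in the table, with 3750 rows at 0 throughout, and need not mean that a gene is silent. The values above 0 in overexpression replicates 1 and 2 were not shared by replicate 3, and no fold change is given.

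Summed over the 3 genes, the family stood at 24.7, 25.4 and 32.0 FPKM in the vector group and at 74.3, 101 and 81.3 FPKM in the overexpression group. The ratio of the mean sums was 3.13, and 2.14 when every library was scaled to the same FPKM total. ZFP36L1 made up 94.5% to 99.4% of the vector sum and 84.9% to 88.1% of the overexpression sum. ZFP36 made up 0.594% to 5.46% against 11.2% to 11.9%. Its share was thus higher in each overexpression library, and a share within a library does not change with the scaling of that library. Within single libraries the level of ZFP36L1 was 17.3 to 167 times that of ZFP36 in the vector group and 7.21 to 7.65 times in the overexpression group.

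BTG1, the first of the antiproliferative BTG genes, stood at 1.29, 1.08 and 0.77 FPKM in the vector group and at 3.46, 4.62 and 4.82 FPKM in the overexpression group. The groups did not overlap. The means were 1.05 ± 0.262 and 4.30 ± 0.734 FPKM (SD, n = 3), a ratio of 4.11 and a log2 difference of 1.37 (SE 0.18).

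BTG2, a p53-inducible and growth factor-inducible gene, stood at 3.29, 4.16 and 3.31 FPKM in the vector group and at 11.50, 10.05 and 11.93 FPKM in the overexpression group. Every overexpression library was above 10 FPKM and every vector library below 5. The means were 3.59 ± 0.497 and 11.2 ± 0.985 FPKM (SD, n = 3), a ratio of 3.11 and a log2 difference of 1.25 (SE 0.13).

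TOB1, which inhibits cell growth and binds both the deadenylase and the poly(A)-binding protein, was the second most abundant of the 8 genes in both groups. It stood at 13.79, 10.54 and 11.45 FPKM in the vector group and at 32.28, 27.53 and 35.17 FPKM in the overexpression group. The groups did not overlap. The means were 11.9 ± 1.68 and 31.7 ± 3.86 FPKM (SD, n = 3), a ratio of 2.65 and a log2 difference of 1.11 (SE 0.13).

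TOB2, its paralogue, stood at 5.07, 4.91 and 4.29 FPKM in the vector group and at 6.07, 8.66 and 8.54 FPKM in the overexpression group. The groups did not overlap in the FPKM as listed, and overexpression replicate 1 lay closest to the vector libraries. The FPKM sums of the overexpression libraries are higher, and at equal sums that replicate would not stand above the vector libraries. The ratio of means was 1.63 and the log2 difference 0.37 (SE 0.16).

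BTG3, which belongs to a separate branch of the family, stood at 7.26, 7.20 and 6.0 FPKM in the vector group and at 10.13, 7.06 and 8.26 FPKM in the overexpression group. Overexpression replicate 2 lay inside the vector range, so the groups overlapped. The log2 difference was 0.02 (SE 0.15), near the middle of all tested genes, of which 48.6% had a larger one. The unscaled difference of BTG3 was 0.29, and after removal of trends with transcript length and GC content it was -0.20, so its sign depends on the scaling.

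**Figure D2:**
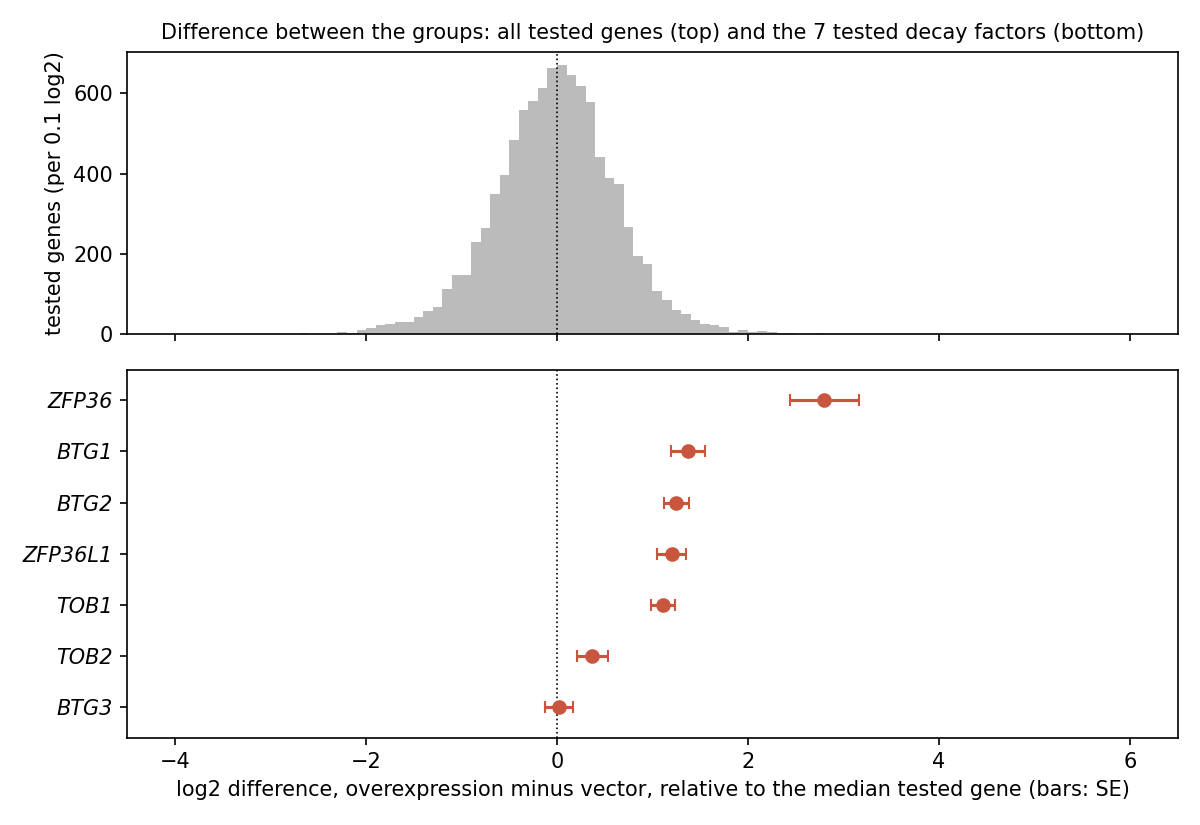
Top, number of tested genes (vertical axis) by log2 difference, overexpression minus vector, relative to the median tested gene (horizontal axis). Bottom, the same quantity for the 7 tested decay factors, with SE bars: ZFP36 lies at 2.80, BTG1, BTG2, ZFP36L1 and TOB1 between 1.11 and 1.37, TOB2 at 0.37 and BTG3 at 0.02.

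The 5 BTG/TOB genes summed to 30.7, 27.9 and 25.8 FPKM in the vector libraries and to 63.4, 57.9 and 68.7 FPKM in the overexpression group. The ratio of the mean sums was 2.25, and 1.54 with all libraries scaled to the same FPKM total. The make-up of the family differed between the groups. BTG3 took 23.2% to 25.8% of the vector sum and 12% to 16.0% of the overexpression sum. The share of BTG2 was 10.7% to 14.9% against 17.4% to 18.1%, and that of BTG1 2.98% to 4.20% against 5.45% to 7.98%. TOB1 took the largest share in both groups, at 37.8% to 44.9% and 47.5% to 51.2%. The share of TOB2 was 16.5% to 17.6% against 9.57% to 15%. The shares of all 5 genes were apart between the groups, lower for BTG3 and TOB2 and higher for BTG1, BTG2 and TOB1.

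**Figure D3:**
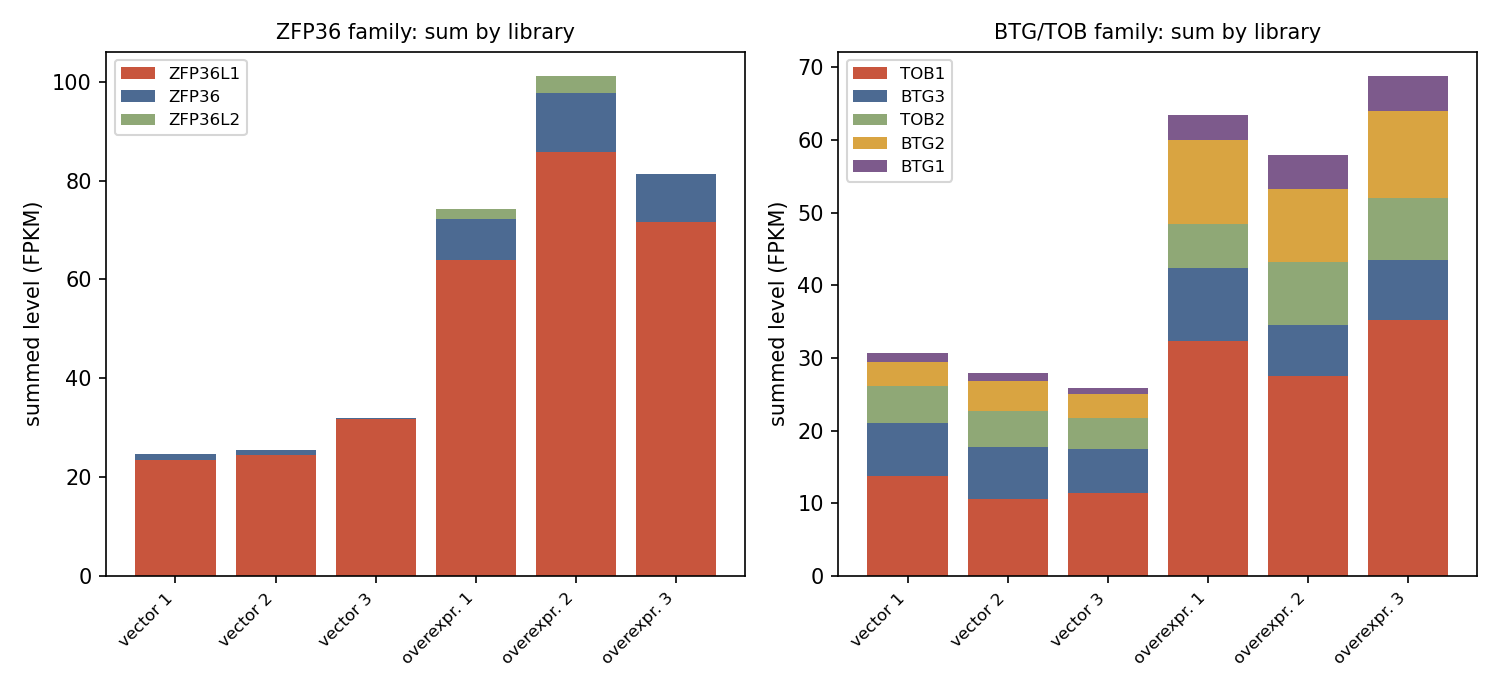
Summed FPKM (vertical axes) of the ZFP36 family (left) and the BTG/TOB family (right) in each library, stacked by gene. The ZFP36 family sums are 24.7 to 32.0 in the vector and 74.3 to 101 in the overexpression libraries, and the BTG/TOB sums 25.8 to 30.7 and 57.9 to 68.7.

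The order of the levels also differed. In the vector libraries it ran ZFP36L1, TOB1, BTG3, TOB2, BTG2, BTG1, ZFP36 and ZFP36L2 from high to low. Neighbours in that order were separate in their FPKM ranges except BTG1 and ZFP36. In the overexpression libraries it ran ZFP36L1, TOB1, BTG2, ZFP36, BTG3, TOB2, BTG1 and ZFP36L2. Here BTG2, ZFP36 and BTG3 each overlapped with the next in the order, so these neighbours are not distinguished by their ranges. BTG2 (10.05 to 11.93 FPKM) and TOB2 (6.07 to 8.66 FPKM) were separate. BTG2 stood at 0.453 to 0.578 times the level of BTG3 in the vector libraries and at 1.14 to 1.44 times in the overexpression libraries. TOB1 stood at 2.15 to 2.72 times the level of TOB2 against 3.18 to 5.32 times. By contrast, the ratio of BTG2 to BTG1 overlapped, at 2.55 to 4.30 and 2.18 to 3.32.

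Against all tested genes, the mean level of BTG2 was at percentile 40.1 in the vector group and 76.2 in the overexpression group. ZFP36L1 was among the highest genes in both groups, at 94.8 and 97.6. BTG3 kept nearly the same place, at 66.9 and 67.5. ZFP36 passed the filter only through the overexpression group and BTG1 stood close to it in the vector group, so no place among tested genes is given for them. Their values depend on the pseudocount. With a pseudocount of 0.1 the unscaled difference of ZFP36 was 3.69 and that of BTG1 1.95, against 3.06 and 1.64.

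The 5 genes most like ZFP36 in their profile over the 6 libraries were PPP1R15A, RRAS, the joined row FOSB;CD3EAP, PIM1 and DUSP1. The measure was the distance between log2 profiles, each centred on its own mean, and ran from 0.754 for PPP1R15A to 1.05 for DUSP1. PPP1R15A, a phosphatase regulator of the stress response, stood at 2.06, 1.05 and 0.97 FPKM against 11.49, 16.21 and 14.56. RRAS, a small GTPase related to RAS, stood at 4.44, 3.96 and 2.70 FPKM against 22.31, 26.95 and 22.65. Like ZFP36, PPP1R15A and RRAS were lowest in vector replicate 3 and highest in overexpression replicate 2. Vector replicates 2 and 3 of PPP1R15A were close to each other. The genes were picked as alike over these same 6 libraries, so a shared pattern follows from the choice and nothing is read from it. Genes among those most like BTG2 were ATP6V1F, TRIB3, CAMLG and CTH, at distances of 0.0952 to 0.247. ATP6V1F, a subunit of the vacuolar proton pump, stood at 19.71, 24.82 and 21.46 FPKM against 65.25, 56.26 and 65.69. TRIB3, a pseudokinase of the stress response, stood at 2.51, 3.03 and 2.77 FPKM against 9.63, 8.29 and 8.39.

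Promoters were matched by symbol to RefSeq windows of build GRCh38.p14, from 250 bases before to 50 after each start, and 7 of the 8 genes had 9 windows. Motifs were searched on both strands. The CArG box, the site of serum response factor, was in 0 of the 9 windows and in 1.29% of all 35116. The AP-1 site TGANTCA, the EGR site GCGTGGGCG and the ETS site CCGGAAGT were also in 0 windows, against 7.71%, 0.795% and 4.14% of all. The cyclic AMP response element TGACGTCA was in 1 window, that of the proximal ZFP36L1 start, against 1.85%. The GC box GGGCGG was in 6 windows, those of ZFP36, BTG1, BTG2, BTG3 and TOB2 and 1 of TOB1, against 45% of all. The EGR site and the GC box share the letters GGGCG, and a match is a description of the window. The 250 bases before the start are shown for ZFP36, the gene with the largest difference, and for ZFP36L1, the most abundant. Capitals mark the 3 GC boxes of the first, on either strand, and the CRE of the second.
ZFP36 (GRCh38.p14, chr19:39406597-39406846, plus strand): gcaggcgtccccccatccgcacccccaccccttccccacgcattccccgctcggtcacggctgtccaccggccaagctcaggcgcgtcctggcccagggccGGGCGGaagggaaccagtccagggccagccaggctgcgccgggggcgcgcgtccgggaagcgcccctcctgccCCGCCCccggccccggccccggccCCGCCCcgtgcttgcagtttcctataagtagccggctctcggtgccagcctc
ZFP36L1 (GRCh38.p14, chr14:68793417-68793666, minus strand): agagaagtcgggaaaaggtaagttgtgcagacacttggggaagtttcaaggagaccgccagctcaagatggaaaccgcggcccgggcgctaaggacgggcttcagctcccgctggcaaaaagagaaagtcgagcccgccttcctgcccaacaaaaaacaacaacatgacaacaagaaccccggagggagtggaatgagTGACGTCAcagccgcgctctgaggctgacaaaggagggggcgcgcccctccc
The proximal CRE of ZFP36L1 begins 52 bases before the start, and the GC boxes of ZFP36 begin 149, 76 and 52 bases before it.

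The machinery that the factors recruit showed no common direction. Of 72 tested genes in 5 lists (CCR4-NOT, other deadenylases, poly(A)-binding proteins, decapping, exosome), limma called 26 higher (36.1%) and 5 lower (6.94%). Of all tested genes it called 37.4% higher and 11.9% lower, and the median difference of the 72 was 0.01 log2. The calls are those of the unscaled fit at a Benjamini-Hochberg adjusted p of 0.05, so a gene called higher can lie near the median gene. After centring each library on its median, 24.0% of all tested genes were called higher and 19.2% lower. Quantile normalization called 19.2% higher and 20.9% lower, while removing the length and GC trend called 19.4% in each direction.

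Of 12 tested CCR4-NOT genes, 2 were called higher and 0 lower, with a median of -0.17 log2 (1 and 1 after centring). CNOT11 rose from 12.3 ± 0.303 to 19.2 ± 0.404 FPKM (SD, n = 3), a difference of 0.35 log2. The unscaled difference, which the fit tested, was 0.62 (limma adjusted p = 0.000907). With quantile normalization this CNOT11 call was lost (limma adjusted p = 0.0691). CNOT1, the scaffold that ZFP36 binds, stood at 38.2 ± 2.41 and 49.7 ± 1.44 FPKM (SD, n = 3; limma adjusted p = 0.00613), but its call was lost after median centring (0.0914) and its direction turned with quantile normalization. CNOT7, the deadenylase subunit that BTG and TOB proteins bind, did not pass, at 3.92, 8.14 and 2.79 FPKM against 5.08, 5.6 and 10.28. CNOT8, its paralogue, did not pass either, at 17.87, 20.08 and 8.15 FPKM against 11.65, 11.19 and 11.09. In both genes the vector SD exceeded the difference of the group means. The low value of CNOT8 in vector replicate 3 decided its result: without it the unscaled difference of -0.33 was -0.72 (limma adjusted p = 0.00302), and 1 gene of the list was called lower.

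Of 8 other deadenylase genes, 1 was called higher and 1 lower, with a median of -0.44 log2, and after median centring 0 and 4. PAN3, the partner of the PAN2 deadenylase, fell from 12.1 ± 0.909 to 8.34 ± 0.909 FPKM (SD, n = 3; limma adjusted p = 0.00916). The call for PARN (limma adjusted p = 0.0304) was lost without vector replicate 1 or 3 and without overexpression replicate 1 or 2 (0.0660 to 0.0903). Of 12 tested poly(A)-binding and associated genes, 5 were called higher and 2 lower, and after centring 3 and 2. PABPC1, the main cytoplasmic poly(A)-binding protein and the partner of BTG1 and BTG2, stood at 111.20, 126.14 and 116.32 FPKM against 207.31, 207.78 and 200.77 (limma adjusted p = 0.000210). The PABPC1 call did not hold with quantile normalization (limma adjusted p = 0.0916), where its direction turned. PAIP2, an inhibitor of PABPC1, rose by 0.68 log2 and LARP4B, an RNA-binding protein of the La-related family, fell by 1.05 log2. PABPC1L, a paralogue, lay at the threshold (limma adjusted p = 0.050), and its call was lost without vector replicate 2 or 3 or any overexpression replicate (0.0960 to 0.140).

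Of 22 decapping and 5′ decay genes, 8 were called higher and 1 lower, and after centring 5 and 4. Without vector replicate 2, overexpression replicate 2 or overexpression replicate 3, 5 were called higher. LSM4, of the LSM ring that binds shortened tails, rose by 1.37 log2, LSM2 by 0.87 and LSM3 by 0.69. The other genes of the ring did not share a direction. LSM7 was called higher (0.58 log2), while LSM1 (-0.02), LSM5 (0.05) and LSM6 (-0.68) did not pass. With the length and GC correction the calls for LSM2 (limma adjusted p = 0.107) and LSM7 (0.801) were lost, and the direction of LSM7 turned. DCP2, the decapping enzyme, stood at 11.41, 12.23 and 11.11 FPKM against 5.51, 2.40 and 8.75 (limma adjusted p = 0.0427). That DCP2 call was lost without any 1 of the vector replicates or overexpression replicate 1 (0.0808 to 0.104), and without overexpression replicate 2 its unscaled difference of -1.15 was -0.70. Of 18 exosome and SKI genes, 10 were called higher and 1 lower, yet centring left 2 and 1, and leaving out single libraries gave 6 to 11 higher, the fewest without overexpression replicate 2. EXOSC5, a core subunit, rose by 0.86 log2 and the joined row AARS;EXOSC6 by 0.68. EXOSC4, another core subunit, was called higher (limma adjusted p = 0.0464), but not without overexpression replicate 1, 2 or 3 (0.0780 to 0.132), and its direction turned with the length and GC correction. The EXOSC5 call was lost with the length and GC correction (limma adjusted p = 0.0972). The single lower gene was WDR61, a SKI subunit, whose call was lost without overexpression replicate 1 (limma adjusted p = 0.0571).

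Other proteins that bind the same or neighbouring 3′ UTR elements went both ways, with 4 of 15 called higher and 4 lower, and 3 and 6 after centring. YBX1, which stabilizes and packages messenger RNA, rose from 27 ± 1.88 to 67.1 ± 2.36 FPKM (SD, n = 3), and KHSRP, a decay factor for AU-rich RNAs, rose by 0.87 log2. PUM2, a Pumilio repressor, fell by 0.82 log2 and the sterile alpha motif protein SAMD4A by 0.84. The joined row TIA1;C2orf42 (-0.74) and RC3H2, the second Roquin (-0.56), are the remaining members called lower. The TIA1;C2orf42 call was lost without vector replicate 2 or 3 or overexpression replicate 2 or 3 (limma adjusted p = 0.0728 to 0.0810). The RC3H2 call was lost without any 1 vector replicate or overexpression replicate 2 or 3 (limma adjusted p = 0.0535 to 0.108), and with the length and GC correction its difference was -0.18 (limma adjusted p = 0.0957). Without overexpression replicate 2 or 3, 1 gene of this list was called lower, and SAMD4A had a limma adjusted p of 0.0607 in both cases. ELAVL1, the stabilizing protein HuR that competes for AU-rich elements, did not pass, at 20.30, 19.91 and 18.50 FPKM against 23.01, 10.82 and 24.08. Overexpression replicate 2 alone was low for ELAVL1, and without it the unscaled difference of -0.10 was 0.26.

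ZFP36 is held inactive when the kinase MK2, product of MAPKAPK2, phosphorylates it and 14-3-3 proteins bind, and the phosphatase PP2A reverses this. Of 15 tested genes of this circuit, 10 were called higher and 2 lower, with a median of 0.52 log2. After median centring these counts were 9 and 2. Over all tested genes 37.4% were called higher and 11.9% lower, and 24.0% and 19.2% after centring. The list was chosen with earlier results of these data known. With quantile normalization the median was 0.06 log2, with 6 higher and 2 lower. MAPK14, the p38α kinase upstream of MK2, stood at 13.48, 7.34 and 12.25 FPKM against 4.99, 4.01 and 4.16. The MAPK14 difference was -1.46 log2, and -1.20 unscaled (limma adjusted p = 0.00498). MAPKAPK2 rose from 5.79 ± 1.15 to 10.3 ± 1.5 FPKM (SD, n = 3; limma adjusted p = 0.00810, and 0.0946 with the length and GC correction). MAPKAPK3, a related kinase, rose by 0.69 log2, while MAPKAPK5 was the other gene called lower (limma adjusted p = 0.0365). The MAPKAPK5 call was lost without vector replicate 1 or 3 or any 1 overexpression replicate (0.0844 to 0.0989). PPP2R1A, the PP2A scaffold, rose by 0.76 log2. YWHAE, the 14-3-3 epsilon gene, stood at 48.05, 44.61 and 76.67 FPKM against 149.06, 163.08 and 142.92 (limma adjusted p = 0.00133).

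The next list holds messenger RNAs known as targets of the ZFP36 family, and was also chosen with earlier results known. For comparison, 37.4% of all tested genes were called higher and 11.9% lower, and 24.0% and 19.2% after centring. Of 25 tested, 17 were called higher and 1 lower, with a median of 0.63 log2, and after median centring 15 and 2. Of the 17, 5 passed the filter only through the overexpression group, which favours higher calls, and over the other 20 tested genes 12 were called higher and 1 lower, with a median of 0.42 log2. PTGS2, at a mean of 1.29 FPKM in vector and 0.570 in overexpression, did not pass the filter. The targets DUSP1, FOS, IER3 and MCL1 are also in the list of immediate early genes. Without these 4, 13 of 21 were called higher and 1 lower, with a median of 0.48 log2. CXCL2, a chemokine, stood at 1.35, 1.11 and 1.26 FPKM against 10.59, 10.27 and 10.83 (limma adjusted p = 3.77e-05). IER3, a regulator of cell survival, rose from 7.09 ± 0.427 to 43.6 ± 4.56 FPKM (SD, n = 3), and DUSP1, a MAP kinase phosphatase, from 2.96 ± 0.339 to 22 ± 3.01. The target called lower was E2F1, the cell cycle transcription factor, at 10.50, 7.03 and 9.32 FPKM against 5.21, 5.55 and 5.46. TNF and IL6, 2 classical targets, were below the filter: TNF stood at 0.00, 0.47 and 0.00 FPKM against 0.90, 0.90 and 0.60, and IL6 at 0 throughout.

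All tested genes were also grouped by the heptamer count of their 3′ UTR. Of 514 tested genes with 3 or more heptamers, 17.9% were called higher and 18.5% lower, with a median of -0.29 log2. Of 5912 genes with 0 heptamers, 42.5% were called higher and 10.6% lower, with a median of 0.08. Genes with 1 and 2 heptamers lay between, at -0.07 and -0.15. The UTR length moved with these classes, from a median of 751 bases with 0 heptamers to 4540 with 3 or more. Among the genes with UTRs over 2396 bases the medians were -0.04 with 0 and -0.20 with at least 1 heptamer. With the trend on transcript length and GC content removed, the medians of the 4 classes lay between -0.01 and 0.02. Split by UTR length, however, the corrected median stayed lower with at least 1 heptamer in each range. For UTRs of up to 447 bases it was 0.00 with 0 (2027 genes) and -0.15 with at least 1 heptamer (179 genes). It was -0.00 and -0.06 from there to 1118 bases, 0.03 and 0.00 to 2396 bases, and 0.07 and 0.02 above. The part of the heptamer in these differences was not tested. ZFP36, ZFP36L1 and ZFP36L2 belong to the class with 3 or more, and differed from its median upward in the 2 tested cases. These genes were chosen with this contrast known, and ZFP36 passed the filter only through the overexpression group. Nothing is therefore read from their place in the class.

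**Figure D4:**
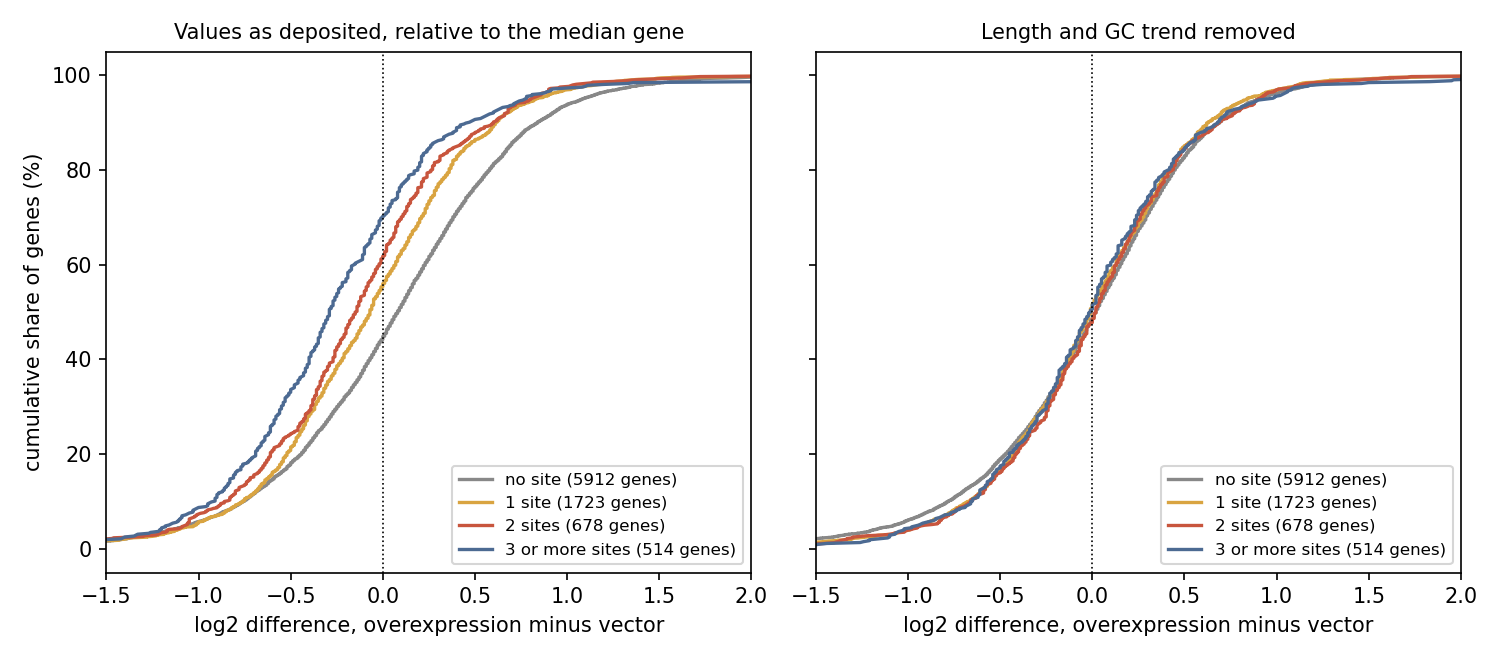
Cumulative share of genes (vertical axis, percent) by log2 difference, overexpression minus vector, for tested genes with 0, 1, 2 and 3 or more TATTTAT heptamers in the 3′ UTR. Left, relative to the median tested gene, where the medians run from 0.08 with 0 to -0.29 with 3 or more; right, with the length and GC trend removed, where they lie between -0.01 and 0.02.

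Neighbouring programmes give the setting for ZFP36 and BTG2. Their lists were chosen with earlier results of these data known. The shares of all tested genes were 37.4% called higher and 11.9% lower, and 24.0% and 19.2% after centring. Of 19 tested immediate early genes, 17 were called higher and 0 lower, with a median of 1.92 log2, and the ZFP36 difference of 2.80 lay within their range. Of the 17, 6 passed the filter only through the overexpression group. Over the other 13 tested genes 11 were called higher and 0 lower, with a median of 1.76 log2. IER5, at a mean of 1.01 FPKM in vector and 0 in overexpression, did not pass. EGR1 rose by 3.79 log2 and JUNB by 3.33. FOS and EGR3 are among the 6 genes that passed only through the overexpression group. FOS had a vector mean of 0.490 FPKM, so its difference of 5.32 log2 depends on the pseudocount. EGR3, listed at 0 in the vector libraries, stood at 4.76 ± 0.576 FPKM (SD, n = 3) in overexpression. Of 19 tested p53 target genes, 8 were called higher and 1 lower, with a median of 0.05 log2, and after centring 3 and 4. Without overexpression replicate 1 or 3, 5 were called higher. GDF15, a stress cytokine, rose by 2.73 log2 and FDXR, a ferredoxin reductase, by 0.77. With the length and GC correction the FDXR difference was 0.50 (limma adjusted p = 0.0519). MDM2, the ubiquitin ligase of p53, fell by 0.84 log2. The call for BAX (limma adjusted p = 0.0396) was lost after median centring (0.102). BTG2 differed by 1.25 log2, above the median of the p53 list and below that of the immediate early list.

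**Figure D5:**
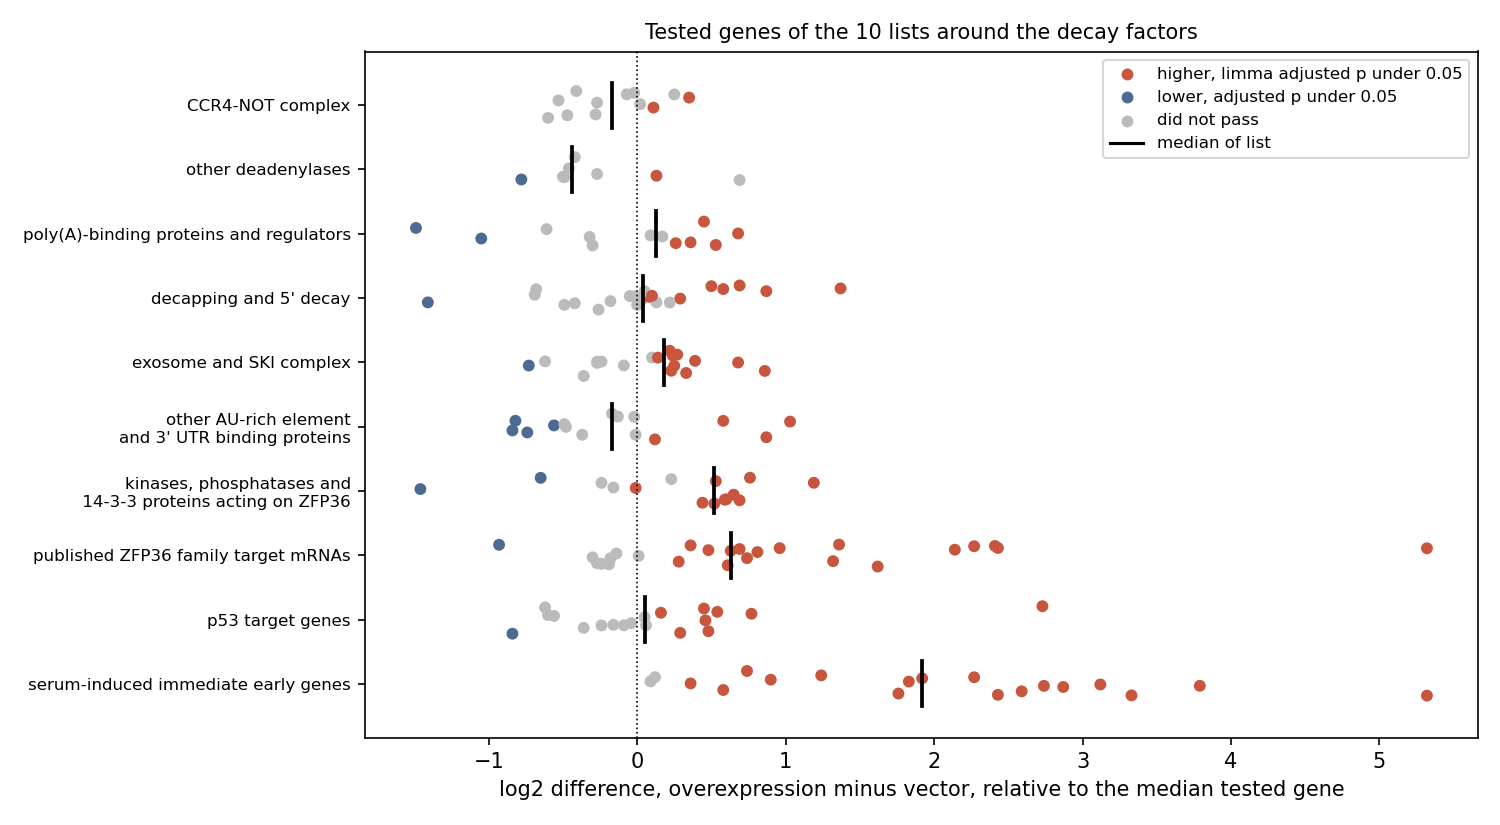
Log2 difference, overexpression minus vector, relative to the median tested gene (horizontal axis) of each tested gene in the 10 lists (rows). Colour gives the limma call of the unscaled fit and black bars the list medians, which run from -0.44 for other deadenylases to 1.92 for immediate early genes.

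Annotated genes overlap some of the 8. In GENCODE 29, BTG3-AS1 and TOB1-AS1 share exon bases with BTG3 and TOB1 on the opposite strand, and BTG1 shares them with LINC01619 on its own strand and an antisense gene on the other. Processed pseudogenes named for BTG1, BTG3 and TOB2 are annotated too. The use of strand in the counting is not given in the sources used here, so the levels of BTG1, BTG3, TOB1 and TOB2 may include such reads. ZFP36, ZFP36L1, ZFP36L2 and BTG2 have no overlap of this kind in that annotation.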

How the data were processed

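RNA sequencing of 3 vector and 3 LINC00901 overexpression libraries was used. The authors deposited 1 table of FPKM values per gene and library; cutadapt, FastQC and HISAT2 with build hg19 are named per the submitters' processing notes, and the tool that made the FPKM values is not given in the sources used here. The values hold no counts, so depth is unknown and no count model was used. Groups came from the sample titles. The 8 genes and the 10 gene lists were chosen with earlier results of these data known.

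Values were transformed to log2(FPKM + 0.5), rows with a mean of at least 1 FPKM were kept (9694), and limma 3.58.1 (R 4.3.3) tested overexpression against vector, using its intensity trend and Benjamini-Hochberg adjustment over all tested rows at 0.05. The fit was tested on simulated data. Lists are described by counts and medians, with no set test. Named genes were the 8 genes, up to 4 called members of each list by absolute difference, CNOT1, CNOT7, CNOT8, PABPC1, MAPKAPK2 and ELAVL1, and the 5 nearest profiles to ZFP36 and to BTG2, of which 1 is not reported here, nor is 1 heptamer site. E2F1, MAPKAPK5, TIA1, RC3H2, TNF, IL6, LSM1, LSM5, LSM6 and LSM7 were named after their values were seen. The heptamer classes were also chosen after the table was seen.

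Transcript length, GC content (for 99.6% of tested rows) and 3′ UTRs (for 91.1%) came from GENCODE 29 by symbol, longest transcript and principal transcript respectively. Alternatives were pseudocounts of 1 and 0.1, omitting the filter or raising it to 5 FPKM, median centring, quantile normalization, limma without trend or robust, a block for the replicate number, omission of single libraries, and a spline trend on length and GC removed with the median. Figures used Python 3.11.15 with matplotlib 3.10.9.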

Additional observations from a re-analysis of the deposited data

How the results depend on the processing

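Over the 16 alternatives, the 7 tested decay factors kept their direction except BTG3, whose unscaled difference of 0.29 log2 was -0.20 with the length and GC correction. Of 111 alternative values of the 7 genes, 94 moved by less than 1 SD between libraries. The values that follow are differences as fitted in each alternative, to be set against the unscaled ones. Those were 3.06 for ZFP36, 1.46 for ZFP36L1, 1.52 for BTG2, 1.37 for TOB1, 0.64 for TOB2 and 0.29 for BTG3. Median centring gave 1.31 for BTG2, 1.16 for TOB1 and 0.08 for BTG3. Quantile normalization gave 0.84 for ZFP36L1, 0.92 for TOB1 and 0.41 for TOB2, and the length and GC correction 2.46 for ZFP36, 1.17 for ZFP36L1 and 0.36 for TOB2. The causes were not tested. The ratio of the family sums was 2.84 to 3.41 for ZFP36 and 2.16 to 2.36 for BTG/TOB when single libraries were left out, and 2.14 and 1.54 at equal FPKM totals. Over all tested genes, 3621 were called higher and 1152 lower. These counts were 2331 and 1866 with median centring, 1865 and 2024 with quantile normalization, 1873 and 1877 once the length and GC trend was removed, and 2396 and 422 with a mean of at least 5 FPKM, where fewer genes were tested. Leaving out single libraries gave 2768 to 3371 and 812 to 1004. Over the 160 tested genes of the 10 lists, 78 were called higher and 13 lower. Median centring gave 53 and 26, quantile normalization 45 and 30, and removal of the length and GC trend 49 and 26. Leaving out single libraries gave 65 to 77 and 8 to 11, the fewest lower without overexpression replicate 2. Of the other named genes, LSM1, LSM5, LSM6 and LSM7 aside, 4 results turned direction against the unscaled fit. These were CNOT1 (-0.27) and PABPC1 (-0.14) with quantile normalization and EXOSC4 (-0.10) with the length and GC correction. The last was ELAVL1, whose unscaled difference was 0.26 without overexpression replicate 2, where the median tested gene stood at 0.27. Relative to that gene ELAVL1 did not turn upward. Its unscaled values without single libraries ran from -0.30 to 0.26. Of 824 values over 52 genes, 68 lost a call and 1, CNOT8 without vector replicate 3, gained one. The replicate block gave 3262 higher and 965 lower over all genes, and 71 and 10 in the lists. Replicate numbers are shared only as numbers: deviations of same-numbered libraries correlated at -0.037, -0.00574 and -0.00503, so the block is not taken as a pairing. The unknown depth limits what can be said of ZFP36L2 and of the vector level of ZFP36.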
